A study of Mus musculus with 24 samples.

Results

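The expression of 9 genes of bone morphogenetic protein (BMP) signalling was examined in constructs retrieved 2 weeks after implantation in mice. The genes were chosen by name and role, with earlier results of these data known, and no cutoff on a measured value was applied: the ligands Bmp2, Bmp4, Bmp6 and Bmp7, the secreted antagonists Nog, Grem1 and Chrd, the membrane pseudoreceptor Bambi, and Id1, a target of the pathway. They are 9 of the 51138 genes in the deposited count table, and all 9 passed the filter on low counts (at least 10 counts over all samples) that left 30564 genes for testing. A further 50 genes of the same pathway (other ligands, antagonists, receptors, SMAD proteins and targets) were listed beside them.

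BMP ligands are secreted dimers of the TGF-β superfamily that bind pairs of type I and type II receptors on the cell surface. The receptors phosphorylate SMAD1, SMAD5 and SMAD8, which enter the nucleus with SMAD4 and switch on targets such as the Id genes. Noggin, gremlin and chordin bind the ligands outside the cell and keep them from their receptors, and Bambi, which lacks a kinase domain, blocks signalling at the membrane. BMP2, BMP4, BMP6 and BMP7 can induce bone outside the skeleton, and their antagonists are themselves switched on by BMP signalling in bone-forming cells.

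Bulk RNA sequencing was done on 24 constructs from 24 mice, in 6 groups of 4. Every construct held 40 mg of BCP (biphasic calcium phosphate granules) and lay under the dorsal skin of a Foxp3-DTR/eGFP mouse of 8 to 9 weeks, an animal whose Foxp3 locus drives the diphtheria toxin receptor and eGFP. Mice of both sexes were used, and each mouse carried a pair of constructs of the same group. The groups were BCP (granules alone), BCP+MSC (granules with 800000 bone marrow MSC, mesenchymal stem cells of wild-type C57BL/6J mice at passage 2), BCP+MSC+RvE1 (MSC pretreated with 10 nM resolvin E1, RvE1, a lipid mediator made from eicosapentaenoic acid), BCP+MSC+Treg (MSC cultured beforehand with activated regulatory T cells, Treg, from the spleen of Foxp3-DTR/eGFP mice), (dep)BCP+MSC (BCP+MSC in hosts given 50 µg/kg diphtheria toxin to remove Treg), and (dep)BCP+MSC+RvE1inj (the same with daily local injection of 1 µM RvE1). Hosts without depletion received no toxin, so an effect of the toxin and an effect of Treg loss cannot be told apart. The paper describes the depletion as an experiment with its own mice, so differences between experiments cannot be told apart from depletion either. Foxp3 itself stood at 0.985 ± 0.542 CPM in (dep)BCP+MSC and at 0.933 ± 0.240 CPM in BCP+MSC (SD, n = 4), a log2 difference of 0.04, so the depletion label was not visible in the level of this transcript at 2 weeks. The transcript had only 4 to 158 counts per sample and was no higher in BCP+MSC+Treg (0.746 ± 0.515 CPM). By flow cytometry, the paper reports fewer Treg in the lymphoid organs of toxin-treated mice. Values are CPM (counts per 1000000 mapped counts) after TMM scaling, and a whole construct holds granules, ingrown host tissue and any surviving MSC, so fewer cells of a type and less RNA per cell cannot be told apart.

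The stretch before the transcription start is shown for Bmp4, Chrd and Grem1, because these were the members with a promoter entry that had their highest group mean in (dep)BCP+MSC. Promoter entries matched 4 of the 9 members in the RefSeq table (GRCm38.p6), and Bmp6 was the other one. Each line holds the 250 bases before the start, read 5′ to 3′ on the gene's own strand: Bmp4 at chr14:46390670-46390919 (- strand), Chrd at chr16:20732877-20733126 (+ strand) and Grem1 at chr2:113758649-113758898 (- strand). Capitals mark the motifs searched on both strands, which were the GC box GGGCGG, the GC-rich BMP response element GGCGCC, the E-box CACGTG and the SMAD palindrome GTCTAGAC.
Bmp4: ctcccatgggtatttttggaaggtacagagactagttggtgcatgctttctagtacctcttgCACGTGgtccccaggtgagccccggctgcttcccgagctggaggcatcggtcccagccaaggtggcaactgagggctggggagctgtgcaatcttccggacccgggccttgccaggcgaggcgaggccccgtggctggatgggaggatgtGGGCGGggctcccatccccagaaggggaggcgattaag
Chrd: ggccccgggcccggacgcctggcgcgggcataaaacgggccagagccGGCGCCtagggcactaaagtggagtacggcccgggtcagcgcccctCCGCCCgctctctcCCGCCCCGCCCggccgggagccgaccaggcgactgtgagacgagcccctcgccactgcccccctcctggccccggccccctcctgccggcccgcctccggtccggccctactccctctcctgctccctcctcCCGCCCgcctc
Grem1: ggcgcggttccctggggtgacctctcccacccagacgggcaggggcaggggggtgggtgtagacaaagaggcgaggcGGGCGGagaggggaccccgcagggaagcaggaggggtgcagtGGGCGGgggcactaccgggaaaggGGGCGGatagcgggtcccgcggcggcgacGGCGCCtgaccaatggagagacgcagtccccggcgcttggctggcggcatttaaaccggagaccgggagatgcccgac
The Bmp4 window held 1 GC box and 1 E-box, with a GC content of 63.2%. The Chrd window held 4 GC boxes, 2 of which share a base, and 1 GGCGCC, with a GC content of 78.0%. The Grem1 window held 3 GC boxes and 1 GGCGCC, with a GC content of 72.0%. Among all 32851 promoter windows of this length, 32.7% held GGGCGG, 9.59% held GGCGCC, 6.02% held CACGTG and 0.167% held GTCTAGAC. A match of letters is a description of the window and says nothing of binding.

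Total counts ran from 8482701 to 144417743 per sample, and 7 libraries held fewer than 20000000. The lowest count of any member in any sample was 4, for Nog. On the TMM-scaled CPM used here, the floor of 3 counts came to 0.299 CPM in the shallowest library, (dep)BCP+MSC replicate 1, and to 0.0223 CPM in the deepest. Per length, Id1 was the most abundant member at 13.2 CPM per kilobase of exon over the 24 samples. The others lay close together, from 0.788 CPM per kilobase for Grem1 to 1.32 for Chrd.

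Across the 8 pairwise comparisons, 0 of the 9 members passed an adjusted p of 0.05 by edgeR's quasi-likelihood test with Benjamini-Hochberg adjustment over all 30564 genes. In (dep)BCP+MSC against BCP+MSC, 3.92% of all genes passed that threshold, and in each of the other 7 comparisons 0% did. At an unadjusted p under 0.05, 4 of 9 members stood apart in (dep)BCP+MSC against BCP+MSC, where 20.3% of all genes did. Bmp4 and Chrd were higher, as were 9.66% of all genes by this threshold, and Bmp2 and Bambi were lower, as were 10.7%. BCP+MSC+RvE1 against BCP+MSC gave 1 of 9, Nog, against 3.26% of all genes. No member had an unadjusted p under 0.05 in BCP+MSC against BCP (5.06% of all genes), BCP+MSC+RvE1 against BCP (15.6%), BCP+MSC+Treg against BCP (7.6%), BCP+MSC+Treg against BCP+MSC (2.72%), BCP+MSC+Treg against BCP+MSC+RvE1 (2.37%) or (dep)BCP+MSC+RvE1inj against (dep)BCP+MSC (7.42%). DESeq2 placed 2 of 9 under an adjusted p of 0.05 in (dep)BCP+MSC against BCP+MSC, Bambi at 0.0216 and Bmp4 at 0.0438, where it called 9.35% of all genes, and 0 of 9 in every other comparison. For every member, each group overlapped its neighbour when the 6 groups were ordered by mean, in all 45 neighbouring pairs.

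**Figure D1:**
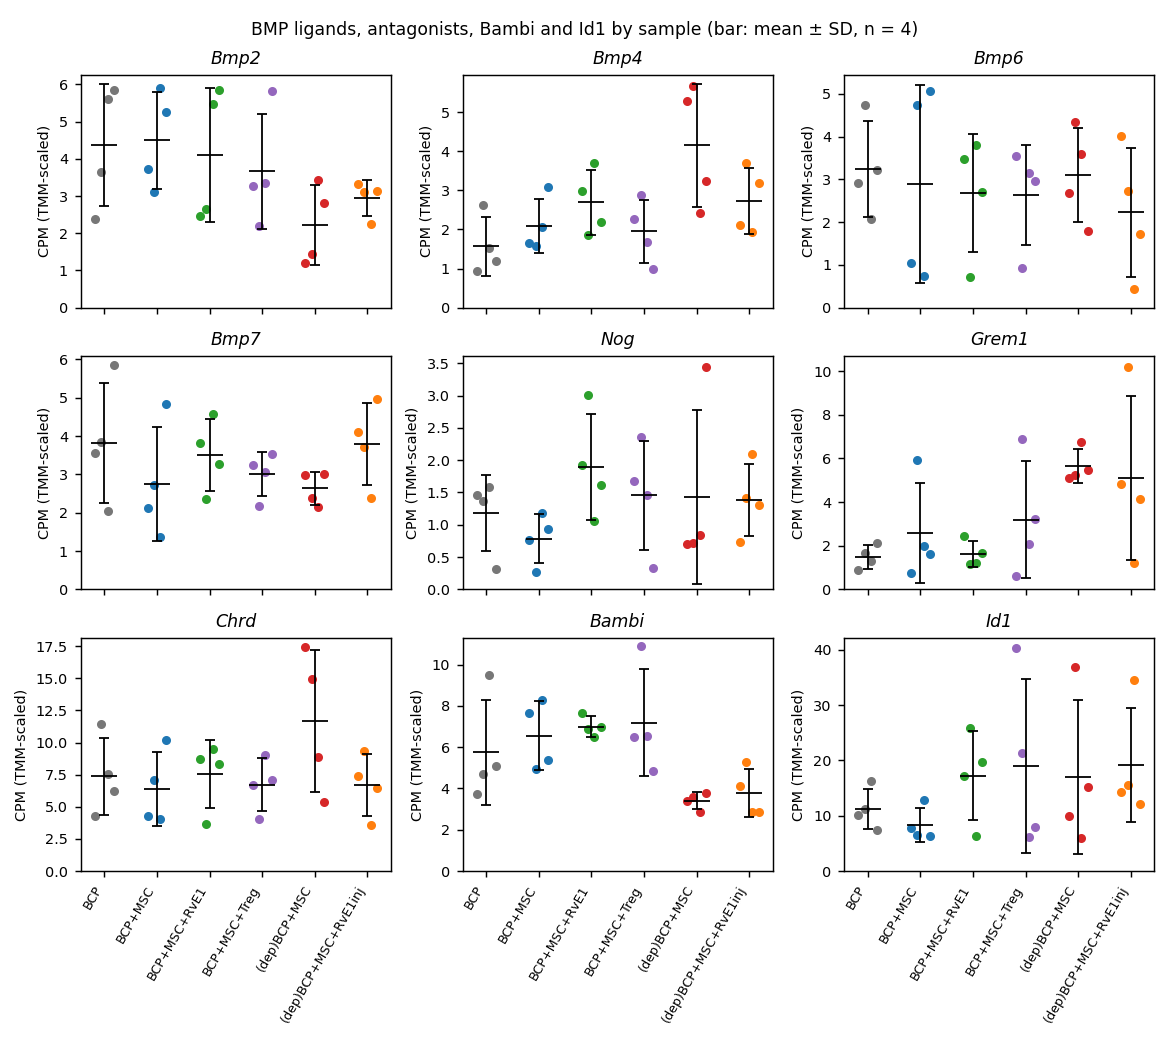
Level of each of the 9 genes in every sample (y axis, TMM-scaled CPM from 0) for the 6 groups (x axis); dots are samples, and the black bars give the mean ± SD of 4 samples. Bambi in the 4 (dep)BCP+MSC samples lay between 2.83 and 3.80 CPM, under all 4 BCP+MSC samples, whereas single samples set the spread of Nog, Grem1 and Id1.

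Among the ligands, Bmp2, a potent inducer of bone, had its lowest mean in the 2 depleted groups. It read 3.74, 3.10, 5.89 and 5.26 CPM in the BCP+MSC replicates 1 to 4. The values in (dep)BCP+MSC were 1.20 CPM in replicate 1, 1.45 CPM in replicate 2, and 3.45 and 2.81 CPM in the columns numbered 4 and 5, which the labels tie to the group but to no replicate. The 4 depleted samples all lay under the BCP+MSC median, and the groups overlapped in a single pair of values (3.10 and 3.45 CPM). The means were 2.23 ± 1.08 and 4.50 ± 1.30 CPM (SD, n = 4), which differed by -0.99 on the log2 scale (SE 0.40) at an edgeR adjusted p of 0.161 (unadjusted 0.0204; 2-sided exact permutation p = 0.0571). Without the libraries under 20000000 counts the log2 fold change was -0.79 and the unadjusted p 0.0551, and the unadjusted p stayed under 0.05 in 5 of 8 fits that left out a single animal (-1.26 to -0.82). Levels in the other groups were 4.37 ± 1.65 CPM in BCP, 4.11 ± 1.80 in BCP+MSC+RvE1, 3.67 ± 1.54 in BCP+MSC+Treg and 2.95 ± 0.485 in (dep)BCP+MSC+RvE1inj.

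Bmp4, the ligand best known from mesoderm and from fracture repair, ran the other way. Its level was 1.66, 1.59, 2.05 and 3.07 CPM in BCP+MSC, and 5.28, 5.66, 2.43 and 3.23 CPM in (dep)BCP+MSC. The 2 highest of all 24 samples were (dep)BCP+MSC replicates 1 and 2, and column 4 lay within the range of BCP+MSC. The means of 4.15 ± 1.57 and 2.09 ± 0.684 CPM differed by 0.98 on the log2 scale (SE 0.40, edgeR adjusted p 0.169, unadjusted 0.0226, exact permutation p = 0.0571). In fits without a single animal the estimate ran from 0.78 to 1.22, and the unadjusted p stayed under 0.05 in 4 of 8, being lost without replicate 1 or 2 of either group. With RvE1 injection the mean was 2.74 ± 0.842 CPM, a log2 fold change of -0.59 (SE 0.40) against (dep)BCP+MSC with a 95% interval of -1.42 to 0.24, and of -0.35 without the libraries under 20000000 counts. BCP alone was lowest at 1.57 ± 0.747 CPM, and BCP+MSC+RvE1 stood 0.76 above it on the log2 scale (SE 0.40, unadjusted p 0.0695). An antisense gene, Gm15217, overlaps exons of Bmp4 and had 0 to 15 counts per sample.

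Bmp6, a ligand linked to iron balance through the liver and also expressed by endothelium, showed no pairwise difference over 1 standard error. It spread widely inside groups instead. In BCP+MSC it read 1.04, 4.73, 0.745 and 5.06 CPM, so that 2 animals were several times above the other 2. BCP+MSC+Treg ran from 0.923 to 3.55 CPM and (dep)BCP+MSC+RvE1inj from 0.448 to 4.02 CPM. The interval of the (dep)BCP+MSC against BCP+MSC difference reached from -1.15 to 1.36 on the log2 scale, which leaves room for a difference of over 1 in either direction.

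Bmp7, a ligand needed for kidney and eye and used clinically in bone repair, was the steadiest ligand in (dep)BCP+MSC, at 2.15 to 3.00 CPM. The BCP+MSC samples ran from 1.36 to 4.83 CPM and overlapped them fully. The log2 difference had an interval of -0.84 to 0.69. Its largest estimates were 0.54 (SE 0.37, unadjusted p 0.162) for RvE1 injection against (dep)BCP+MSC and -0.46 (SE 0.37, unadjusted p 0.222) for BCP+MSC against BCP.

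Of the antagonists, Chrd, which encodes the dorsalizing factor chordin, was the most abundant per kilobase of exon in 5 of the 6 groups. In (dep)BCP+MSC+RvE1inj it averaged 1.15 CPM per kilobase and Grem1 1.23. In CPM, Chrd read 4.26, 7.07, 4.05 and 10.2 CPM in BCP+MSC and 17.4, 14.9, 8.89 and 5.35 CPM in (dep)BCP+MSC. The 2 highest of all 24 samples were again (dep)BCP+MSC replicates 1 and 2. The log2 fold change was 0.86 (SE 0.40, edgeR adjusted p 0.230, unadjusted 0.0433, exact permutation p = 0.143). It was 0.62 with an unadjusted p of 0.118 without the libraries under 20000000 counts, and 0.87 with an unadjusted p of 0.0653 when only those 2 groups were fitted. Leaving out a single animal gave 0.59 to 1.18, with an unadjusted p under 0.05 in 3 of 8 fits. After RvE1 injection Chrd read 7.40, 9.31, 3.58 and 6.46 CPM, all under the (dep)BCP+MSC median, a log2 fold change of -0.79 (SE 0.40, edgeR adjusted p 0.668, unadjusted 0.0630). That estimate was -0.51 without (dep)BCP+MSC replicate 1 and -0.19 (unadjusted p 0.677) without the libraries under 20000000 counts. Thpo, the thrombopoietin gene, overlaps exons of Chrd on the other strand and the counting command had no strand option. Thpo read 0.626 to 2.67 CPM in BCP+MSC and 1.49 to 7.42 CPM in (dep)BCP+MSC. Reads on exons shared by both genes were assigned to neither, and how many Chrd reads this removed was not tested.

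Grem1, which encodes gremlin, an antagonist known from limb bud and kidney development, lay between 5.08 and 6.77 CPM in the 4 (dep)BCP+MSC samples, where its SD was the smallest share of its mean (13.6%). In BCP+MSC it read 0.764, 5.92, 1.97 and 1.62 CPM, so 3 animals were under 2 CPM and replicate 2 was in the range of the depleted group. The log2 fold change was 1.13 (SE 0.61, edgeR adjusted p 0.302, unadjusted 0.0765), and 1.97 without BCP+MSC replicate 2. The same animal set other values. Without it, the difference of BCP+MSC from BCP went from 0.79 to -0.040, and that of BCP+MSC+RvE1 from BCP+MSC went from -0.66 to 0.16. In BCP+MSC+Treg, replicate 2 read 6.88 CPM against 0.604 to 3.21 in the other 3, and in (dep)BCP+MSC+RvE1inj replicate 2 read 10.2 CPM and replicate 3 read 1.19 CPM.

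Nog encodes noggin, a high-affinity antagonist of BMP2 and BMP4, and was the member with the fewest counts. In the RvE1-primed constructs it read 1.92, 3.01, 1.06 and 1.61 CPM, against 0.764, 0.275, 1.18 and 0.936 CPM in BCP+MSC. The log2 fold change of 1.26 (edgeR adjusted p 0.924, unadjusted 0.0495, exact permutation p = 0.0571) was 0.96 without replicate 2 of the primed group, 0.97 without the libraries under 20000000 counts and 1.06 with a covariate for sex-linked transcripts, each with an unadjusted p over 0.05. Leaving out a single animal of either group kept the unadjusted p under 0.05 in 2 of 8 fits, with estimates from 0.96 to 1.52. The 15 skeletal muscle markers summed to 24991 to 44277 CPM in BCP+MSC+RvE1 and to 375 to 28099 CPM in BCP+MSC. Of these markers, 0 of 15 passed an edgeR adjusted p of 0.05. Pearson's r of Nog with this list over 24 samples was 0.66, and 0.62 after group means were removed. The part of muscle RNA in the Nog values was not tested. With depletion, 3 samples lay between 0.698 and 0.847 CPM and column 5 at 3.44 CPM. The estimate of 0.88 against BCP+MSC became -0.065 without that sample.

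**Figure D2:**
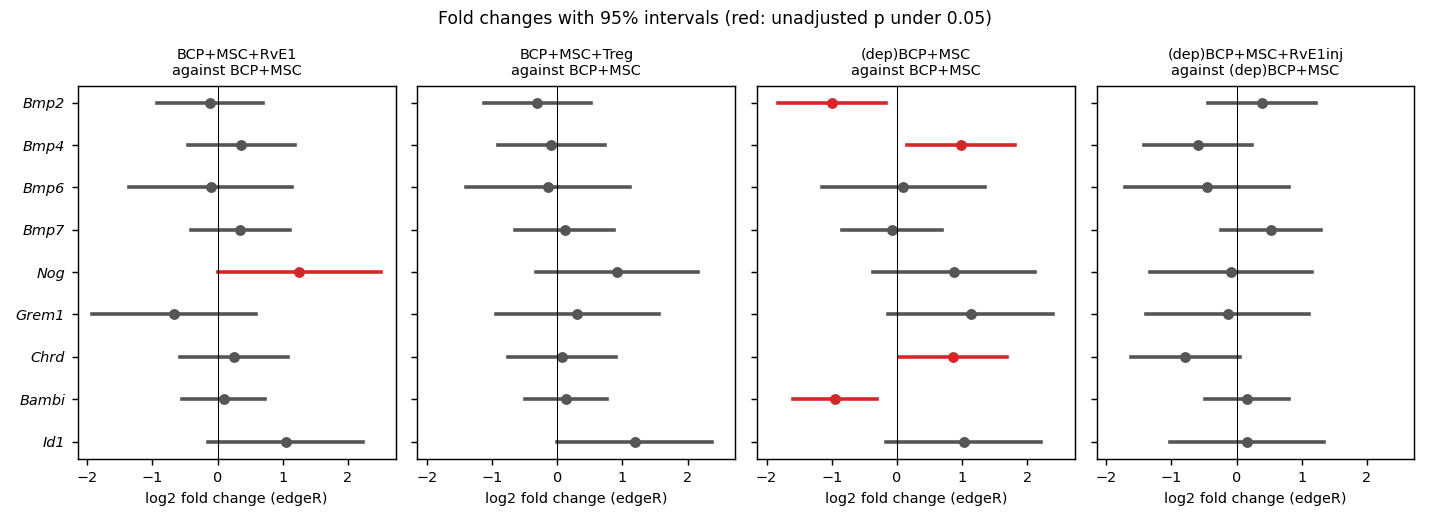
Log2 fold change (x axis, edgeR) of each member (y axis) in 4 comparisons, with 95% intervals as lines; red marks an unadjusted p under 0.05, and no value passed an adjusted p of 0.05. Bmp2 and Bambi lay under 0 and Bmp4 and Chrd over 0 in (dep)BCP+MSC against BCP+MSC.

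Bambi gave the smallest p of the 9 genes. It read 7.67, 4.93, 8.29 and 5.36 CPM in BCP+MSC and 3.39, 3.57, 2.83 and 3.80 CPM in (dep)BCP+MSC. All 4 depleted samples lay under all 4 BCP+MSC samples, a separation also seen, in this direction, in 4.93% of all genes. The means were 3.40 ± 0.411 and 6.56 ± 1.67 CPM, a log2 fold change of -0.95 (SE 0.31, 95% interval -1.59 to -0.31, edgeR adjusted p 0.0847, unadjusted 0.00540). The exact permutation p was 0.0286, the smallest that 4 against 4 samples allow. The unadjusted p stayed under 0.05 in all 8 fits that left out a single animal, with estimates from -1.05 to -0.82. RvE1 injection left Bambi at 3.76 ± 1.17 CPM, a log2 difference from (dep)BCP+MSC with an interval of -0.48 to 0.80. In the groups without toxin the means ran from 5.75 ± 2.55 CPM in BCP to 7.19 ± 2.58 CPM after Treg coculture. The spread was narrowest after RvE1 priming, at 6.99 ± 0.502 CPM.

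Id1, an inhibitor of differentiation that responds directly to SMAD1 and SMAD5, varied widely between animals of a group. BCP+MSC had the lowest mean, with 7.75, 6.44, 12.9 and 6.39 CPM. The primed group read 17.3, 25.8, 6.35 and 19.6 CPM, the Treg group 40.3, 21.4, 6.21 and 7.97 CPM, and (dep)BCP+MSC 9.97, 37.0, 5.91 and 15.1 CPM. Each of these 3 groups thus held at least 1 sample as low as BCP+MSC and at least 1 above every BCP+MSC sample. Against BCP+MSC the log2 fold change was 1.04 (SE 0.57, unadjusted p 0.0834) after RvE1 priming, 1.19 (SE 0.58, unadjusted p 0.0516) after Treg coculture and 1.03 (SE 0.57, unadjusted p 0.0879) with depletion, by edgeR, with adjusted p of 0.324 or more. These 3 comparisons share the BCP+MSC samples. The first of them lay between 0.79 and 1.33 whichever animal was left out. Leaving out Treg replicate 1 took the second to 0.51, and leaving out (dep)BCP+MSC replicate 2 took the third to 0.31. With a covariate for sex-linked transcripts, the unadjusted p was 0.0110, 0.0147 and 0.0436 in that order and the edgeR adjusted p 0.823, 1 and 0.217. Without the libraries under 20000000 counts the estimates were 0.80, 1.44 and 1.22, with an unadjusted p of 0.217, 0.0355 and 0.0681.

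The effect of RvE1 injection in depleted hosts was compared with that of RvE1 priming in hosts without toxin, as their difference. These effects also differed in dose (daily 1 µM against 10 nM on cultured MSC), and the paper describes no vehicle injection in (dep)BCP+MSC. The route of RvE1 therefore cannot be told apart from the toxin, the dose or the injections themselves. No member had an unadjusted p under 0.05 (4.45% of all genes did), and the lowest was that of Chrd, at 0.0806, with an estimate of -1.04 (SE 0.57, 95% interval -2.21 to 0.14). Bmp4 followed at -0.96 (SE 0.57, unadjusted p 0.104) and Nog at -1.34 (SE 0.86, unadjusted p 0.130). The Nog value was -0.43 without (dep)BCP+MSC column 5, and that of Chrd was -0.67 without the libraries under 20000000 counts. Every interval spans 0 and several reach beyond 2 on the log2 scale, so that sizeable differences were not detectable with 4 animals a group.

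The summed ligands among the members were then set against the summed secreted antagonists among them, each per kilobase of exon. Other pathway genes were left out of the sums, some of them far more abundant. Over the 24 samples, Fstl1, listed as an antagonist, averaged 191 CPM per kilobase, and Gdf10, listed as a ligand, averaged 10.8. Bmp2, Bmp4, Bmp6 and Bmp7 together came to 4.09 ± 1.51 CPM per kilobase in BCP+MSC and to 4.44 ± 0.697 in (dep)BCP+MSC (SD, n = 4). Chrd, Grem1 and Nog together came to 2.18 ± 0.684 and 4.20 ± 0.402 CPM per kilobase in the same groups. The log2 ratio of ligands to antagonists was 1.02, 0.59, 0.79 and 1.20 in the BCP+MSC replicates 1 to 4. It was -0.016 and 0.33 in the first pair of (dep)BCP+MSC replicates and 0.16 and -0.19 in columns 4 and 5. All 4 depleted samples lay under all 4 BCP+MSC samples. The ratio averaged 0.88 ± 0.43 in BCP, 0.45 ± 0.62 in BCP+MSC+Treg, 0.57 ± 0.56 in BCP+MSC+RvE1 and 0.31 ± 0.37 in (dep)BCP+MSC+RvE1inj. It is a description of transcript sums, was given no test, and its value depends on the scale and the genes summed. In plain CPM it was 0.36 ± 0.33 in BCP+MSC and -0.61 ± 0.23 in (dep)BCP+MSC. Without Chrd it was 1.93 ± 0.61 in BCP+MSC and 1.06 ± 0.68 in (dep)BCP+MSC, and those groups then overlapped.

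**Figure D3:**
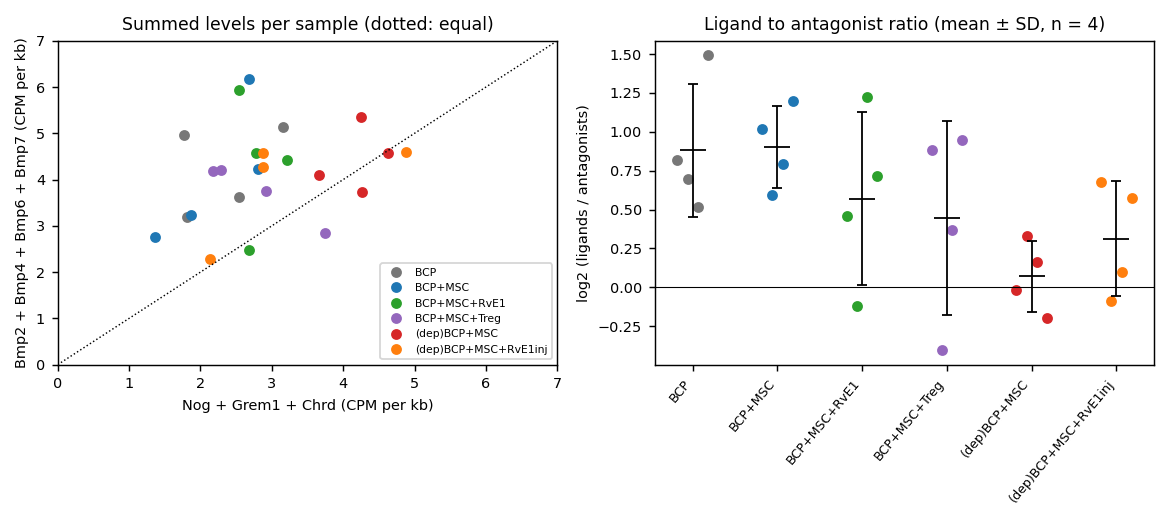
Left, summed ligands (y axis) against summed antagonists (x axis) in CPM per kilobase for each of 24 samples, with a dotted line at equality; right, their log2 ratio by group with mean ± SD of 4 samples. The 4 (dep)BCP+MSC samples lay between -0.19 and 0.33 and the 4 BCP+MSC samples between 0.59 and 1.20.

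Among the 50 other pathway genes, 49 passed the low-count filter (Sost, the sclerostin gene, did not). In (dep)BCP+MSC against BCP+MSC, 4 of 49 fell at an adjusted p under 0.05 and 0 rose, where 2.17% of all genes fell and 1.75% rose. By role, these were 1 of 11 other ligands, 2 of 10 other antagonists, 1 of 10 receptors, 0 of 8 SMAD and SMURF genes and 0 of 10 targets. The median log2 fold change of the 49 genes was 0.089 against -0.04 for all genes. In each of the other 7 comparisons 0 of 49 passed an adjusted p of 0.05 by edgeR or DESeq2. At an unadjusted p under 0.05 by edgeR, 7 of 49 passed in (dep)BCP+MSC+RvE1inj against (dep)BCP+MSC (7.42% of all genes). BCP+MSC+RvE1 gave 3 against BCP (15.6%) and 2 against BCP+MSC (3.26%). BCP+MSC+Treg gave 1 against BCP (7.6%), 1 against BCP+MSC (2.72%) and 0 against BCP+MSC+RvE1 (2.37%), and BCP+MSC gave 0 against BCP (5.06%).

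Acvrl1, the endothelial type I receptor ALK1, read 141, 89.0, 128 and 102 CPM in BCP+MSC and 34.2, 53.1, 74.7 and 75.0 CPM in (dep)BCP+MSC. It fell by 0.95 on the log2 scale (SE 0.23, edgeR adjusted p 0.0188), and the groups did not overlap. Gdf10, a BMP3-related ligand, read 13.7 to 43.1 CPM in BCP+MSC and 8.34 to 13.8 CPM in the depleted group, and fell by 1.27 (SE 0.32, edgeR adjusted p 0.0261). Bmper, a secreted BMP-binding regulator of vessels, read 12.3 to 23.7 CPM and 2.79 to 10.5 CPM, and fell by 1.17 (SE 0.31, edgeR adjusted p 0.0307). The other one, named here after its values were seen, was the follistatin-like gene Fstl1 (log2 fold change -1.09, SE 0.29, edgeR adjusted p 0.0349). Bmper and Fstl1 were listed as antagonists. The count was 0 without (dep)BCP+MSC replicate 1, where 1.54% of all genes passed, and 1 without replicate 2 (1.60%). It was 1 (without replicate 4) to 3 when a BCP+MSC animal was left out, where 2.15% to 3.53% of all genes passed. It was 2 without the libraries under 20000000 counts (2.1% of all genes) and 0 when only those 2 groups were fitted (0.595%). The share of all genes thus fell in these fits as well. The 4 estimates kept their sign in each of these fits.

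**Figure D4:**
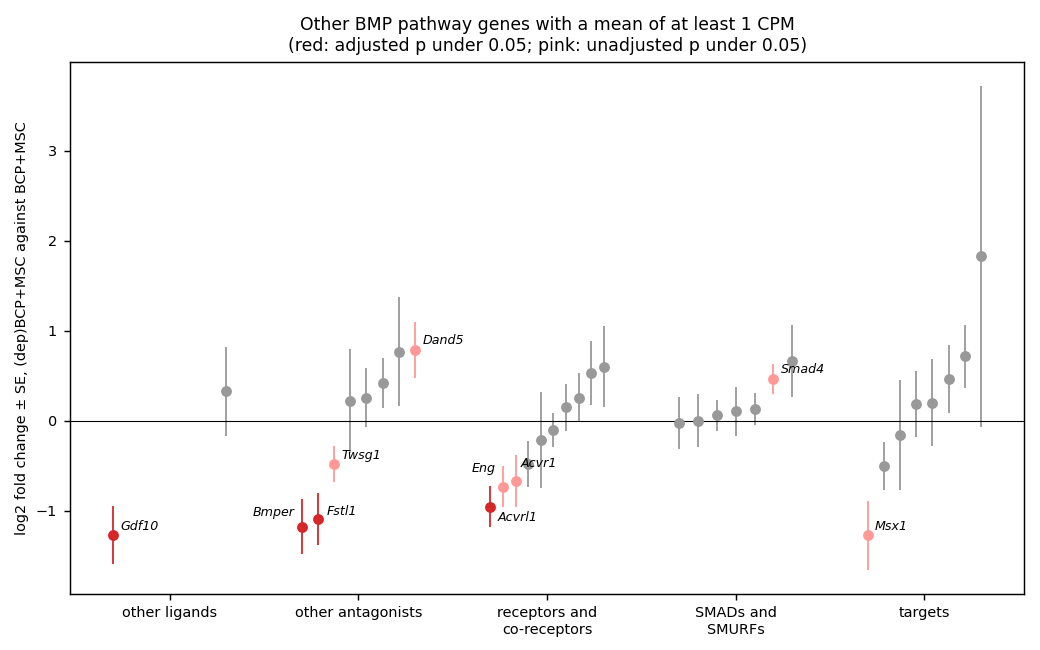
Log2 fold change ± SE (y axis) in (dep)BCP+MSC against BCP+MSC of the 35 other pathway genes with a mean of at least 1 CPM, grouped by role (x axis); red marks an adjusted and pink an unadjusted p under 0.05. The 4 red genes, Acvrl1, Gdf10, Bmper and Fstl1, all lay under 0.

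Markers of other cell types moved with the depleted group. Counts here are at an edgeR adjusted p under 0.05, by which 2.17% of all genes fell and 1.75% rose. Fibroblast markers fell in 6 of 10 (median log2 fold change -1.46), and their sum was 5672 to 13849 CPM in (dep)BCP+MSC against 16314 to 38170 CPM in BCP+MSC. Osteoblast markers fell in 2 of 12 (median -1.21, range -6.57 to 2.54), with sums of 2384 to 10618 CPM against 10072 to 17142 CPM. Col1a1 is on both the osteoblast and the fibroblast list, so these 2 results are not separate. Bglap2 and Mepe were at 0 in all 4 depleted samples, but Mepe was also at 0 in every BCP and BCP+MSC+Treg sample. Skin and hair markers rose in 3 of 15 (median 2.53, range -3.74 to 10.0). Their sums were 47.5 to 620 CPM against 24.9 to 83.1 CPM. Macrophage markers rose in 1 of 11, but the median of that list was -0.19. Its sums were 5198 to 8785 CPM against 7266 to 10098 CPM, which overlapped. No marker of muscle (15), endothelium (12) or fat (10) passed, with median log2 fold changes of 1.02, -0.11 and 0.58. Pearson's r with the fibroblast list over 24 samples was 0.66 for Bmp2, -0.50 for Bmp4 and 0.078 for Chrd. It was 0.47 for Bambi and -0.61 for Id1. After group means were removed, these values were 0.45, -0.040, 0.53, -0.12 and -0.75 in that order. The part of these cell types in the values of Bmp2, Bmp4, Chrd, Bambi, Id1 and the 4 pathway genes was not tested.

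The genes most like each member over the 24 samples, among 14765 named genes with a mean of at least 1 CPM, were given by Pearson's r of log2 CPM. Bmp2 was closest to the cytokine gene Lif (0.89) and Pigz (0.88), Bmp4 to Camta1 (0.87) and Trip10 (0.86), Bmp6 to Echdc1 (0.92) and Plpp3 (0.91), and Bmp7 to Scara5 (0.69) and Cd55 (0.68). Nog was closest to Pip4p2 (0.88) and Aagab (0.85), Grem1 to Map3k8 (0.81) and Gpr141 (0.81), and Chrd to the natriuretic peptide receptor gene Npr2 (0.89) and Mst1r (0.86). Bambi came next to Gm17749 (0.88) and Pdlim7 (0.87), and Id1 to Grrp1 (0.89) and its own family member Id3 (0.87). All values come from the same libraries, whose depth and tissue makeup the genes share, and the best of all those genes was taken for each.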

How the data were processed

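RNA was extracted by the authors from whole constructs at week 2, 1 per mouse, and stranded mRNA libraries were sequenced as paired ends. The authors aligned reads to GRCm38 with HISAT2 2.0.5 and assigned pairs to exons with featureCounts 1.5.2, summing them by gene of GENCODE M13. The deposited values are raw counts for 51138 genes in 24 columns. Strand, overlap and multiple alignment options are absent from the recorded command, so reads on overlapping exons were not assigned. For (dep)BCP+MSC the table shows columns 1, 2, 4 and 5, whereas titles run from 1 to 4, so columns 4 and 5 enter as samples of the group without a replicate number.

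Genes reaching 10 counts in total were fitted jointly over 24 samples with edgeR 4.0.16 (TMM scaling, robust quasi-likelihood test), and p-values were adjusted by Benjamini-Hochberg over 30564 genes. Single values were also compared by 2-sided exact permutation tests, whose smallest p for 4 against 4 is 0.0286. The model was tested on simulated data. DESeq2 1.42.0, RLE scaling, other filters, the replicate block, a covariate for sex-linked transcripts, fits of only the groups compared and fits without single animals were alternatives. Fits without libraries under 20000000 counts and with numbered samples only were added after seeing the data. Total counts of 8482701 to 144417743 per sample set the precision, and floors cover counting error only. Same-numbered samples of BCP+MSC+RvE1 and BCP+MSC+Treg deviated together (correlations of 0.157 to 0.563 over 4 pairs), though nothing in the labels says what a number marks. This did not hold for the other comparisons.

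The 9 members, the pathway list and the marker lists were chosen with earlier results of these data known, and 1 pathway gene is not reported here. The text names the members in every comparison, up to 3 other pathway genes in each direction with the smallest p among those past an adjusted p of 0.05, the 2 genes most correlated with each member, and Foxp3. The pathway genes Fstl1, Msx1 and Sost were named outside this rule. Ligand and antagonist sums are CPM per kilobase of exon. Promoter letters came from RefSeq.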

Additional observations from a re-analysis of the deposited data

Results flagged for a closer look

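In groups of 4 samples, a value was marked when its gap to the nearest other sample was too large a share of the group's range on the log2 scale by Dixon's criterion at the 95% level. Chance marks about 1 in 20 groups, and 5 of the 54 combinations of gene and group were marked. Bmp2 read 2.24 CPM in (dep)BCP+MSC+RvE1inj replicate 3, against 3.12 to 3.32 CPM in the other 3 samples. Bmp6 read 0.923 CPM in BCP+MSC+Treg replicate 2, against 2.96 to 3.55 CPM. Nog read 0.315 CPM in BCP replicate 4, from 5 counts, against 1.37 to 1.59 CPM. Nog in (dep)BCP+MSC column 5 was at 3.44 CPM, against 0.698 to 0.847 CPM, and this sample sets the group's difference from BCP+MSC. Chrd read 3.67 CPM in BCP+MSC+RvE1 replicate 2, against 8.36 to 9.51 CPM. Of these samples, (dep)BCP+MSC+RvE1inj replicate 3, BCP replicate 4 and BCP+MSC+RvE1 replicate 2 were among the 7 libraries under 20000000 counts.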

How the results depend on the processing

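Of 270 refits of the 30 member fold changes that exceeded 1 standard error, 243 kept their sign and their side of an unadjusted p of 0.05, 20 came under it, 5 went over it and 2 changed sign: Nog in (dep)BCP+MSC against BCP+MSC, at -0.31 with the replicate block and -0.13 with numbered samples only. Only refits of the 4 values under 0.05 in that comparison and the 1 in BCP+MSC+RvE1 against BCP+MSC could go over it. The choice by size also favours a stable sign. Leaving out 1 animal changed 3 signs in 272 refits: Nog in the same comparison (range -0.065, without column 5, to 1.14), and Grem1 in BCP+MSC against BCP (range -0.040, without BCP+MSC replicate 2, to 1.09) and in BCP+MSC+RvE1 against BCP+MSC (range -0.96 to 0.16, the latter without BCP+MSC replicate 2). The causes were not tested.

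The count of members past an adjusted p was 2 by DESeq2 (Bmp4, Bambi) and 2 with numbered samples only (Bmp2, Chrd) in (dep)BCP+MSC against BCP+MSC, where these fits called 9.35% and 10.8% of all genes, and 0 in every other fit and comparison. At an unadjusted p, that comparison gave 2 members without shallow libraries (Bmp4, Bambi) and 1 to 5 without 1 animal, of which Bambi was in each. It was 1 without (dep)BCP+MSC replicate 1 or replicate 2, and 2 without BCP+MSC replicate 1 (Bmp2, Bambi) or 3 (Bmp4, Bambi). Over all genes, 2951 were higher and 3257 lower at this threshold in the main fit, and 2589 and 2627 without shallow libraries. Without (dep)BCP+MSC replicate 1 they were 2169 and 2465, and without replicate 2 they were 2286 and 2414. BCP+MSC+RvE1 against BCP+MSC gave 0 without shallow libraries, 2 with only the groups compared (Id1, Nog) and 0 to 2 without 1 animal. BCP+MSC+Treg against BCP+MSC gave 1 (Id1) under either other filter, numbered samples only, the sex-linked covariate and DESeq2, 2 without shallow libraries (Id1, Nog) and 0 to 1 without 1 animal. RvE1 injection in depleted hosts gave 1 (Chrd) with RLE scaling and DESeq2, 2 with the replicate block (Bmp2, Chrd), 3 with numbered samples only (Bmp2, Bmp4, Chrd) and 0 to 1 without 1 animal. The difference between injection and priming gave 1 with the block (Chrd), 3 with numbered samples only (the same 3 genes) and 0 to 1 without 1 animal. The 3 comparisons with BCP and that of BCP+MSC+Treg with BCP+MSC+RvE1 gave 0 to 1 without 1 animal. Outside the comparison of (dep)BCP+MSC with BCP+MSC, the share of all genes in these refits is not given. A changed count there is thus not a result about the members alone.

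The block fit leaves out columns 4 and 5. With it Chrd after RvE1 injection was -1.31 (unadjusted p 0.0125), the difference between injection and priming was -1.62 for Chrd and -0.15 for Nog, and the unadjusted p of Id1 against BCP+MSC was 0.0714 after priming, 0.0647 after Treg coculture and 0.0803 with depletion. It changed no other count of members by over 1.5 times.

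Other pathway genes past an adjusted p in (dep)BCP+MSC against BCP+MSC numbered 4, 8 by DESeq2, 2 without shallow libraries (Acvrl1, Msx1), 0 with only the groups compared and 0 to 4 without 1 animal. Over all genes that comparison called 1198, 2859 by DESeq2, 2443 with the block, 3245 with numbered samples only, 630 without shallow libraries, 157 with only the groups compared and 467 to 1672 without 1 animal.

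The log2 ratio of ligands to antagonists in plain CPM was 0.40 in BCP, 0.36 in BCP+MSC, -0.11 in (dep)BCP+MSC+RvE1inj and -0.61 in (dep)BCP+MSC. With antagonists without Chrd it was 2.01 in BCP, 1.93 in BCP+MSC, 1.52 with primed MSC, 1.34 with Treg coculture, 1.06 in (dep)BCP+MSC and 0.96 with RvE1 injection. Per kilobase, the mean without 1 animal ran from 0.80 to 1.00 in BCP+MSC and from -0.016 to 0.16 in (dep)BCP+MSC. It ran from 0.68 to 1.00 in BCP, from 0.35 to 0.80 in BCP+MSC+RvE1, from 0.28 to 0.73 in BCP+MSC+Treg and from 0.19 to 0.45 in (dep)BCP+MSC+RvE1inj.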

Other observations

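Bmp6 and Chrd were low in the same animals, a pattern noticed after the values were seen and given no test. The 5 samples with the least Bmp6 were also the 5 with the least Chrd of the 24. In (dep)BCP+MSC+RvE1inj replicate 3, Bmp6 read 0.448 and Chrd 3.58 CPM. In BCP+MSC+RvE1 replicate 2 they read 0.722 and 3.67 CPM, and in BCP+MSC replicate 3 they read 0.745 and 4.05 CPM. BCP+MSC+Treg replicate 2 gave 0.923 and 4.06 CPM, and BCP+MSC replicate 1 gave 1.04 and 4.26 CPM. The next lowest values were 1.72 CPM for Bmp6 and 4.32 CPM for Chrd, in other samples. These 5 animals came from 4 groups, and their libraries held 13803176 to 68371203 counts. Echdc1 and Plpp3 were picked as the genes most like Bmp6 over these same samples, so their low values there follow from that choice. Echdc1 read 0 to 0.600 CPM in them and 1.18 CPM or more in each of the other 19 samples, and Plpp3 read 45.5 to 65.1 CPM in them and 83.6 CPM or more in the others.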
